A study of Homo sapiens with 12 samples.

Results

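This section compares 2 human triple-negative breast cancer cell lines under interferon-β, MDA-MB-231 against HCC38, and sets that line difference beside the one in untreated cells. The members are the 6 treated RNA-seq libraries of 12 in all, chosen by their labels alone, with 3 treated libraries per line and 6 untreated libraries as the baseline. All cells were wild type (WT). The treated groups received interferon-β at 400 IU/mL for 48 h, and the baseline groups received no treatment. HCC38 was kept in RPMI-1640 and MDA-MB-231 in DMEM with 1 g/L glucose, and effects of the medium cannot be told apart from those of the line. Each group stands for 1 established line rather than for a tumour type. The labels call the libraries biological replicates without saying whether they came from separate cultures, so the p-values reflect the scatter of these 3 libraries per group alone, which may be technical. In bulk RNA, fewer cells expressing a gene and less RNA per cell cannot be told apart.

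Type I interferons such as interferon-β bind the receptor chains IFNAR1 and IFNAR2, which activate the kinases JAK1 and TYK2. These phosphorylate STAT proteins, STAT2 among them, which join IRF9 and bind a DNA element of paired GAAA units, the interferon-stimulated response element. The genes switched on encode antiviral enzymes, antigen-presentation proteins and regulators of the pathway itself, many of which cells also express at a low tonic level without added interferon. MDA-MB-231 is widely used as a mesenchymal-like line, and HCC38 as a basal-like line with more epithelial traits.

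Total counts of the treated libraries ran from 26660038 to 39137471. The threshold for a call was an adjusted p (Benjamini-Hochberg) below 0.05 in edgeR's quasi-likelihood test, run on 18121 genes. Levels are CPM, read counts scaled to a common library size, and line differences are log2 values of MDA-MB-231 over HCC38, so positive values mean higher in MDA-MB-231. Of the receptors behind the triple-negative label, ESR1 held 4 counts in treated HCC38 and 5 in treated MDA-MB-231, and PGR 1 and 0. ERBB2, which encodes HER2, was present at 166 ± 15.5 and 78.3 ± 5.78 CPM (SD, n = 3). Of 16 leukocyte markers 5 were at 0 in each treated line, and their summed level was 9.70 to 10.2 CPM in HCC38 and 3.84 to 4.71 CPM in MDA-MB-231. The MDA-MB-231 libraries fell into 2 parts by the number in their deposited names, and replicates of different parts differed more (chi-square per degree of freedom 42.4 to 62.3) than any others (4.1 to 14.1). The first part holds treated replicate 1 and untreated replicates 1 and 2. The second holds treated replicates 2 and 3 and untreated replicate 3. The parts are thus unevenly spread over treatment, so responses and changes in MDA-MB-231 cannot be fully told apart from them. Taken alone, the first part has 1 treated library and the second 1 untreated library.

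Under interferon-β the lines differed at most genes. Of 18121 genes 13567 (74.9%) were called, with 6647 (36.7%) higher in MDA-MB-231 and 6920 (38.2%) higher in HCC38. At 4-fold or more, 1879 called genes were higher in MDA-MB-231 and 2659 in HCC38. In untreated cells 13671 genes (75.4%) were called. The change of the line difference, tested itself as an interaction of line and treatment, was called for 647 genes (3.57%), 360 moving towards MDA-MB-231 and 287 towards HCC38, while 3359 had an unadjusted p under 0.05. The median treated difference over all genes was -0.02 and the median change 0.02 on the log2 scale.

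The 3 tests together sort the genes into classes. A difference was kept at 11624 genes (64.1%), called in both conditions in the same direction with no called change. At 847 of the tested genes 1 line held 0 counts in both conditions. A change cannot be tested there, so such genes count as kept if called in both conditions. It narrowed at 300 (1.66%) and closed at 90 (0.497%), where the treated lines no longer differed by the test. It widened at 105 (0.579%), opened at 79 (0.436%) where the untreated lines had not been called, and reversed its sign at 80 (0.441%), being called in both conditions in opposite directions. A further 2851 genes were called in 1 condition with no called change, and 2992 in none. Of the 4538 genes called at 4-fold or more under treatment, 4252 were kept. These classes come from the same libraries as the 3 tests and are descriptions of them.

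**Figure D1:**
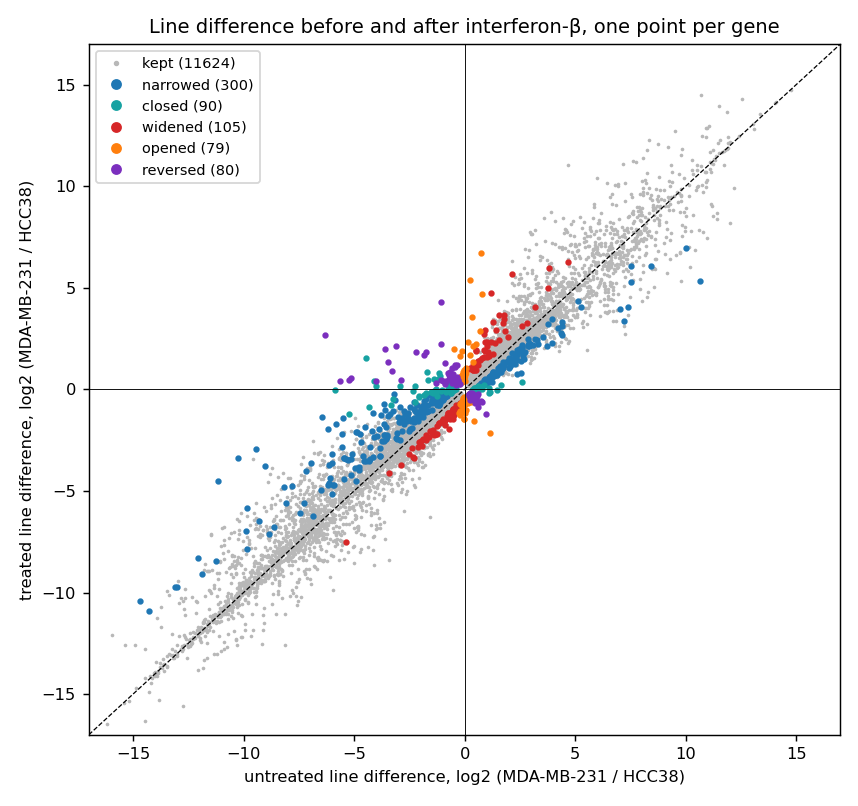
Each point is a gene, with its log2 line difference (MDA-MB-231 over HCC38) in untreated cells on the horizontal axis and in interferon-β-treated cells on the vertical axis, coloured by class with the number of genes in brackets, and genes in no class are not drawn. The 11624 kept genes had no called change but need not lie on the dashed line of equality, as with IRF7 (10.69 untreated, 14.5 treated). The 80 reversed genes lie in the upper left and lower right quadrants.

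Each line's own response differed between the classes. In MDA-MB-231 1162 genes (6.41%) rose and 1112 (6.14%) fell with interferon-β, and in HCC38 439 (2.42%) rose and 233 (1.29%) fell. Among the 187 genes whose HCC38-high difference narrowed, 164 rose in MDA-MB-231. Among the 113 whose MDA-MB-231-high difference narrowed, 56 fell in MDA-MB-231 and 55 rose in HCC38. Of the 48 genes that reversed to MDA-MB-231-high, 40 rose in MDA-MB-231 and 23 in HCC38, and of the 32 that reversed to HCC38-high, 29 fell in MDA-MB-231. These response counts use the libraries that defined the classes and are given as a description.

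The antiviral interferon-stimulated genes moved towards MDA-MB-231 as a list. All 65 members were tested. In untreated cells 13 were higher in MDA-MB-231 and 45 in HCC38, beside 6601 and 7070 of all 18121 genes. Their median untreated line difference was -1.05. Under interferon-β 32 were higher in MDA-MB-231 and 20 in HCC38, beside 36.7% and 38.2% of all genes, with a median of 0.30. The change was called towards MDA-MB-231 for 41 members and towards HCC38 for 0 of 65, beside 3.57% called either way over all genes. By class 16 reversed, 16 were kept, 12 narrowed, 7 closed, 5 widened and 1 opened. The list is one of those chosen with earlier results of these data known, so its direction is not independent evidence.

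Promoter sequences of 6 genes are shown because these genes stand for the classes and their windows hold the element described above. The search was for GAAA, then any 2 bases, then GAAA, on either strand, in RefSeq promoters of GRCh38.p14 running 250 bases before to 50 after each start. Matches may overlap each other. The capitals mark the matches, and the reverse strand reads TTTC on both sides. Each stretch lies upstream of its listed start and is written 5′ to 3′ on the gene's strand.
IFI27: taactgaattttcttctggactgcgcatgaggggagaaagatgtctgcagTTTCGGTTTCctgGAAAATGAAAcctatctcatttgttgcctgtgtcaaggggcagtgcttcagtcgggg
IFI44L: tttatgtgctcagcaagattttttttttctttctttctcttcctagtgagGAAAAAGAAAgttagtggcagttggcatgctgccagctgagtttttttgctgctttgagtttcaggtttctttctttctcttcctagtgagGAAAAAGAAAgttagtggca
BST2: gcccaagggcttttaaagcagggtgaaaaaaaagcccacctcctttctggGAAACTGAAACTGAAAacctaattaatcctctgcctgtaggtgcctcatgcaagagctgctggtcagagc
IFI6: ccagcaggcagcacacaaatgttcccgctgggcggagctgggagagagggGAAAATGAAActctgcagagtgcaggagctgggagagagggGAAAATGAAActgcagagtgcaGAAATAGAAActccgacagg
IFI44: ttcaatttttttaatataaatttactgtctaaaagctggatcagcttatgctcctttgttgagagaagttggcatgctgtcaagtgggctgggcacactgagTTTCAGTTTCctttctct
TRIM14: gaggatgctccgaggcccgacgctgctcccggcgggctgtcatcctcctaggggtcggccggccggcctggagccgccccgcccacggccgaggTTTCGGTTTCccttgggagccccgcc

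The stretches lie at chr14:94110578-94110697 for IFI27 (plus strand), chr1:78620234-78620394 for IFI44L (plus), chr19:17405691-17405810 for BST2 (minus), chr1:27672266-27672398 for IFI6 (minus), chr1:78649669-78649788 for IFI44 (plus) and chr9:98119223-98119342 for TRIM14 (minus). In GENCODE release 29 none of them overlaps an exon except that of BST2, which overlaps an exon of the long non-coding RNA gene BISPR. IFI27, IFI44L and BST2 reversed, IFI6 closed, IFI44 narrowed and TRIM14 opened. The IFI6 stretch holds 3 matches, those of IFI27, IFI44L and BST2 hold 2 each, and those of IFI44 and TRIM14 hold 1 each.

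A promoter was listed for 12330 of the genes tested, and a gene was counted if any of its listed promoters held a match. The share was 4.38% of 27305 genes in the promoter table and 4.09% of those tested. It was 3.68% of 8066 kept genes. Among reversed genes it was 10 of 37 (27.0%) whose difference moved towards MDA-MB-231 and 3 of 23 that moved towards HCC38. Among narrowed genes it was 26 of 134 (19.4%) that moved towards MDA-MB-231 and 4 of 94 (4.26%) that moved towards HCC38, and among closed genes 8 of 33 (24.2%) and 0 of 35. Among widened genes it was 3 of 34 (8.82%) that moved towards MDA-MB-231 and 0 of 47 that moved towards HCC38, and among opened genes 2 of 25 and 1 of 34 (2.94%). For the antiviral list the share was 36 of 51 (70.6%). A match is a description of these letters only.

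Of the 48 genes that reversed to MDA-MB-231-high, 16 were antiviral genes. OAS1, at 12:112905856-112933219 on GRCh38, encodes an enzyme that senses double-stranded RNA and activates RNase L. OAS1 read 274, 308 and 321 CPM in treated MDA-MB-231 and 230.5, 229 and 225 CPM in treated HCC38. The treated groups did not overlap but lay within 1.32-fold, a log2 difference of 0.40 (SE 0.07, adjusted p = 0.00018), which does not pass against a 1.5-fold threshold. Untreated OAS1 was 1.10 ± 0.151 CPM in MDA-MB-231 and 55.1 ± 0.155 CPM in HCC38, a log2 difference of -5.62, so the change was 6.02 (SE 0.13, adjusted p = 4.7e-13).

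IFITM1, a membrane protein that blocks virus entry, read 242, 251 and 259.8 CPM in treated MDA-MB-231 against 56.9, 68.5 and 62.5 CPM in treated HCC38. All MDA-MB-231 libraries were higher, by a log2 difference of 2.00 (SE 0.11, adjusted p = 2.5e-10), whereas untreated IFITM1 differed by -3.62. MX2, a relative of the antiviral GTPase MX1, read 244, 307 and 304 CPM in treated MDA-MB-231 and 14.4, 16.3 and 12.8 CPM in treated HCC38. MX2 had the widest treated gap of the genes in this paragraph, 19.6-fold, after an untreated difference of -1.05 (change 5.34, SE 0.19, adjusted p = 1.5e-10). BST2, or tetherin, which holds budding viruses at the cell surface, read 503, 532 and 586 CPM in treated MDA-MB-231 and 282, 324 and 263 CPM in treated HCC38, against 4.70 ± 2.03 and 45.7 ± 1.56 CPM untreated.

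IFI44L read 290.2, 385 and 349 CPM in treated MDA-MB-231 and 235, 209.8 and 242 CPM in treated HCC38, without overlap, from 1.26 ± 0.566 and 45.2 ± 5.55 CPM untreated. XAF1, an interferon-induced binding partner of the apoptosis inhibitor XIAP, read 276, 418 and 395 CPM against 156, 123 and 147 CPM, again without overlap. SAMHD1, which degrades deoxynucleotides and restricts viruses and acts at stalled replication forks, also reversed. SAMHD1 read 675, 691 and 689.9 CPM in treated MDA-MB-231 and 437, 424 and 441 CPM in treated HCC38, a log2 difference of 0.66 (SE 0.07, adjusted p = 6.5e-07) against -0.68 untreated. ISG15, a ubiquitin-like modifier, went from -0.57 to 1.07, and IFI27 from -4.01 to 0.39. With log2(FPKM + 0.1) the treated IFI27 difference was 0.10 and was not called (adjusted p = 0.44, limma). LGALS9, which encodes galectin-9, read 11.9, 31.2 and 38.0 CPM in treated MDA-MB-231 with replicate 1 the lowest, and 6.22, 6.84 and 5.48 CPM in treated HCC38. The treated LGALS9 difference was 0.94 in the MDA-MB-231 part that holds replicate 1 and 2.48 in the other.

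Differences that closed included OAS2, IFI6, HSH2D and EPSTI1. OAS2, a longer relative of OAS1, read 577, 756 and 754 CPM in treated MDA-MB-231 and 526, 519 and 537 CPM in treated HCC38. The groups did not overlap, yet the difference of 0.40 was not called (95% interval -0.12 to 0.92, adjusted p = 0.15), after -4.09 untreated. IFI6, a mitochondrial and endoplasmic reticulum protein, read 414, 489 and 575 against 438, 498 and 369.7 CPM, with overlapping groups (interval -0.15 to 0.50). HSH2D, an adaptor of lymphocyte signalling, read 17.7, 16.8 and 18.6 CPM against 19.4, 19.4 and 16.2 CPM, with a change of 5.80 (SE 0.29, adjusted p = 1.1e-08). For EPSTI1 the treated interval was -0.02 to 0.31. With a term for the MDA-MB-231 parts the treated differences of OAS2 (0.28, adjusted p = 0.029) and EPSTI1 (0.16, adjusted p = 0.033) were called, so neither is closed in that fit. In the part of treated replicates 2 and 3 alone IFI6 was called too (0.28, adjusted p = 0.02). Of the 90 closed genes 77 had a treated 95% interval inside 2-fold either way and 65 inside 1.5-fold, so a remaining difference of up to these sizes was not excluded for them.

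Antiviral differences that narrowed stayed higher in HCC38. MX1, at 21:41420020-41470071, encodes a GTPase that traps viral nucleocapsids and is a common readout of interferon. MX1 read 323, 353 and 361 CPM in treated MDA-MB-231 and 946, 852 and 868 CPM in treated HCC38, far from overlap, a log2 difference of -1.36 (SE 0.09, adjusted p = 1.3e-09). Untreated MX1 was 2.98 ± 0.426 and 256 ± 11.5 CPM, a difference of -6.43. OAS3 (-0.22 treated, -3.19 untreated), PARP9 (-0.52, -3.14) and USP18 (-0.99, -3.59), a protease that removes ISG15 and dampens receptor signalling, followed.

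**Figure D2:**
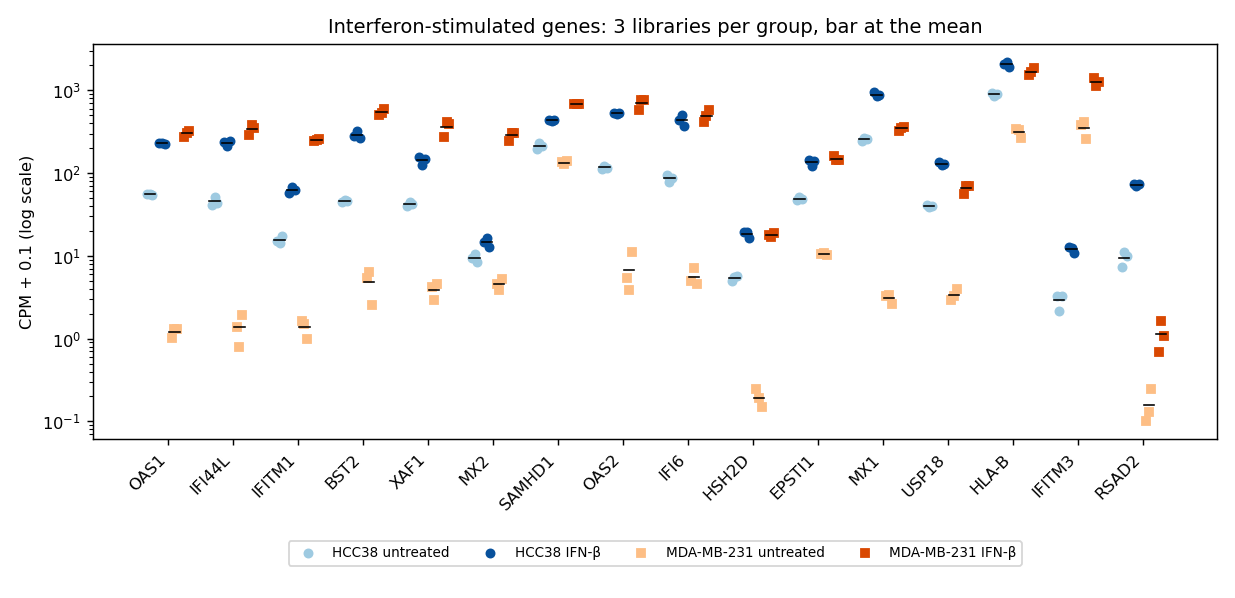
Points are single libraries (3 per group) of 16 interferon-stimulated genes, as CPM plus 0.1 on a log axis, with a bar at each group mean. From OAS1 to SAMHD1 the MDA-MB-231 squares pass from below to above the HCC38 circles with interferon-β, from OAS2 to EPSTI1 the treated groups lie close, overlapping for IFI6 and HSH2D and apart for OAS2 and EPSTI1, and MX1, USP18 and RSAD2 stay higher in HCC38.

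Of the 65 antiviral genes 5 widened and 1 opened, beside 0.579% and 0.436% of all genes. TRIM14, an adaptor of antiviral signalling, opened too but is on none of the gene lists. Untreated TRIM14 was 79.9 ± 15.4 CPM in MDA-MB-231 and 77.5 ± 2.58 CPM in HCC38. With interferon-β TRIM14 read 272, 284 and 288 CPM in MDA-MB-231 and 132, 139 and 132 CPM in HCC38, an opened difference of 1.07 (SE 0.10, adjusted p = 1.7e-07). PARP10, a mono-ADP-ribosyltransferase, opened likewise, with 159, 168 and 214 CPM against 50.2, 54.0 and 42.5 CPM, a difference of 1.88. IFIT1 was called when treated (1.58) and not when untreated (0.55), but its change of 1.03 was not called (SE 0.57, adjusted p = 0.37). Untreated IFIT1 was 71.0 ± 57.2 CPM in MDA-MB-231, so its spread there was nearly as large as its mean.

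Other antiviral differences were kept. IFITM3 read 1426, 1125 and 1255 CPM in treated MDA-MB-231 and 12.8, 12.2 and 10.7 CPM in treated HCC38, a difference of 6.73 (SE 0.21) beside 6.98 untreated. IFITM2 was likewise MDA-MB-231-high (5.78 and 5.39). IFITM1, IFITM2 and IFITM3 are neighbours with similar sequences, so the split of reads among them is uncertain. FPKM differences of IFITM3 and IFITM2 on the log2(FPKM + 0.1) scale were 6.46 and 5.88. On the HCC38 side RSAD2, or viperin, read 0.580, 1.55 and 0.972 CPM in treated MDA-MB-231 and 72.7, 68.8 and 74.0 CPM in treated HCC38. Its neighbour CMPK2 had 1 count in the treated MDA-MB-231 libraries together and 2432 in those of HCC38.

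Among the 22 interferon signalling genes 16 differences were kept, 5 MDA-MB-231-high and 11 HCC38-high, beside 64.1% of all genes. JAK1 read 266, 280.4 and 271 CPM in treated MDA-MB-231 and 78.8, 74.3 and 81.5 CPM in treated HCC38, a kept difference of 1.80 (1.92 untreated). TYK2 (1.21) and IRF3 (0.87), a factor activated by nucleic acid sensors, were also MDA-MB-231-high. IFNAR1 was HCC38-high (-0.62), and the IFNAR2 difference of -0.21 was not called under treatment (SE 0.12, adjusted p = 0.13). STAT2 closed, from -0.65 to 0.17.

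IRF7, which amplifies interferon production, read 86.4, 81.0 and 99.0 CPM in treated MDA-MB-231 and 0 counts in all HCC38 libraries. Against a floor of 3 counts over the HCC38 group, treated IRF7 was at least 2527-fold higher in MDA-MB-231. IRF7 was listed at 0 FPKM in HCC38 too. Untreated IRF7 was 6.35 ± 1.34 CPM in MDA-MB-231, at least 209.6-fold higher by the same rule. It rose there with interferon-β (log2 response 3.82, adjusted p = 5.2e-08). The change of a gene at 0 in one line cannot be tested, so IRF7 counts as kept by default. IRF9 was low by counts, at 3.57 ± 1.96 CPM in treated MDA-MB-231 and 1.98 ± 0.167 CPM in treated HCC38, but high by FPKM, at 81.7 ± 2.34 and 59.6 ± 3.42, so its level is uncertain.

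Some antigen-presentation genes also moved towards MDA-MB-231. MHC class I molecules carry peptides to CD8 T cells, and their assembly needs the light chain B2M, the transporter TAP1 and the immunoproteasome subunit PSMB9. Of 22 class I genes 10 changed towards MDA-MB-231 and 1 towards HCC38, beside 3.57% called either way over all genes, and the median moved from -0.76 to -0.25. By class 8 narrowed, 2 closed and 1 opened. HLA-B read 1543, 1653 and 1855 CPM in treated MDA-MB-231 and 2089, 2198 and 1904 CPM in treated HCC38, without overlap, a difference of -0.29 (SE 0.10, adjusted p = 0.017) after -1.52. HLA-C remained at -1.39 after -2.55, and PSMB9 at -1.22 after -3.36. HLA-E, a ligand of NK cell receptors, opened to 0.60 with 383, 381 and 413 CPM against 265, 264 and 247 CPM. HLA genes are alike in sequence and vary between lines, so reads may be assigned unevenly and these levels are uncertain.

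MHC class II genes stayed HCC38-high at low levels. Of 13 tested 9 were HCC38-high under treatment and 1 MDA-MB-231-high, beside 38.2% and 36.7% of all genes. The change was called towards MDA-MB-231 for 4, beside 3.57% called either way over all genes. The median moved from -2.38 to -1.35. With interferon-β 9 rose in MDA-MB-231 and 2 in HCC38, beside 6.41% and 2.42% of all genes. The HLA-DRB1 change of 2.72 (adjusted p = 0.03) is not called when any of several single libraries is left out (adjusted p up to 0.078). HLA-DRB1 was 0.782 ± 0.342 CPM in treated MDA-MB-231 and 5.73 ± 0.644 CPM in treated HCC38, and CD74, the invariant chain, 6.53 ± 1.49 and 10.9 ± 1.06 CPM. CD274, which encodes PD-L1, read 8.82, 23.98 and 21.65 CPM in treated MDA-MB-231 and 39.5, 40.8 and 45.1 CPM in treated HCC38. The CD274 difference of -1.21 was called (SE 0.31, adjusted p = 0.0034), but its change was not (adjusted p = 0.57). With a term for the MDA-MB-231 parts the CD274 change was called (-0.93, adjusted p = 0.00071), as it was in the part of replicate 1 (-1.21, adjusted p = 0.00048) and in the other (-0.72, adjusted p = 0.0063).

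Of the chemokine and cytokine genes 19 of 28 tested were kept and 1 change was called, both near the shares of all genes (64.1% and 3.57%). CXCL1, a neutrophil attractant, was HCC38-high (-3.73), as was CCL5 (-3.54), whereas IL6 (1.68) and IL1B (7.82) were MDA-MB-231-high. CXCL1 was uneven in treated MDA-MB-231, at 12.3, 2.15 and 2.24 CPM. The groups did not overlap for IL6, at 25.4, 18.7 and 19.4 CPM in MDA-MB-231 and 7.87, 5.62 and 6.38 CPM in HCC38. Of 18 nucleic acid sensing genes 8 were kept, beside 64.1% of all genes. STING1, the adaptor downstream of the DNA sensor CGAS, was MDA-MB-231-high (1.25 treated, 0.79 untreated), and CGAS itself differed by 0.05 under treatment (SE 0.07, adjusted p = 0.50).

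**Figure D3:**
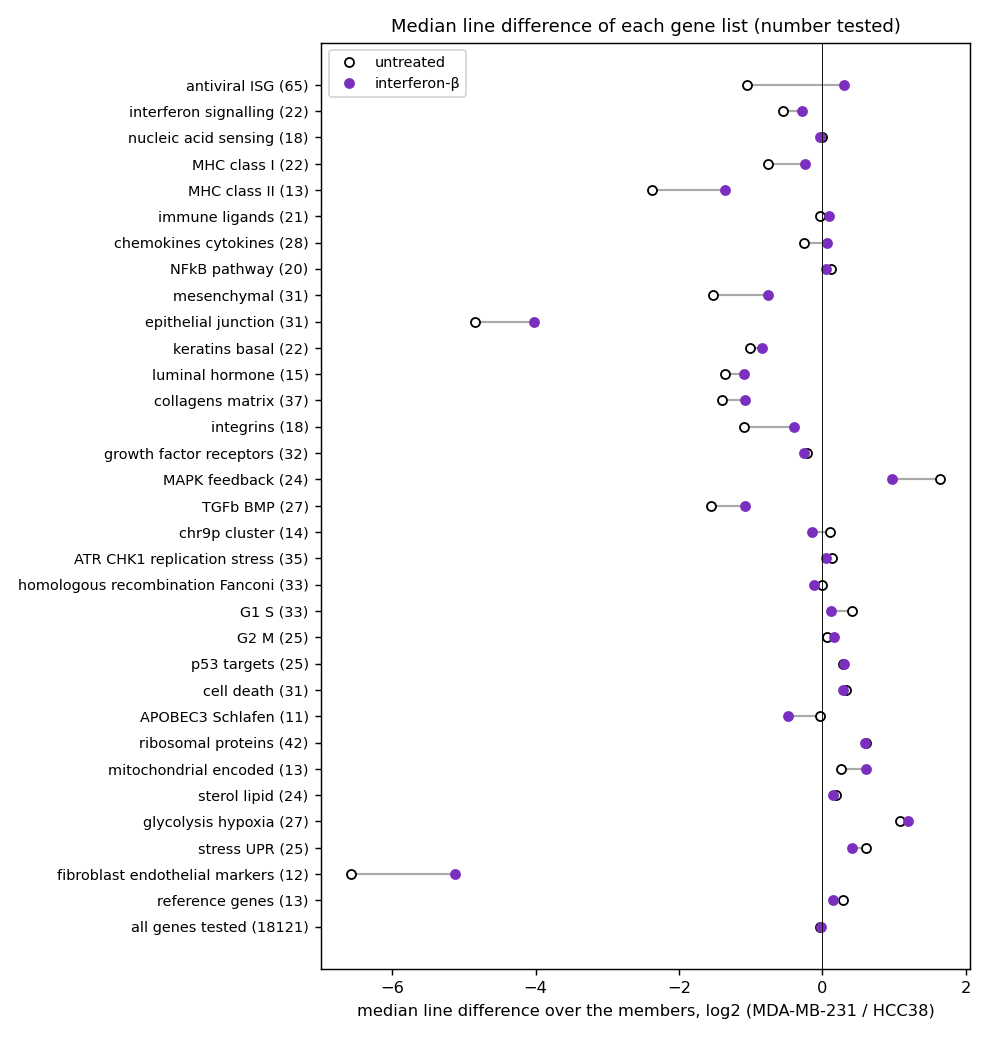
Median log2 line difference over the tested members of each gene list with at least 10 of them, in untreated (open) and interferon-β-treated (filled) cells, with the number tested in brackets. The antiviral list crosses from -1.05 to 0.30, while the epithelial junction list stays far on the HCC38 side and all genes stay near 0.

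Of the MDA-MB-231-high differences that narrowed, NT5E, FOSL1, HMGA2 and AXL rose in HCC38. NT5E, at 6:85449584-85495791, encodes CD73, which makes adenosine at the cell surface. NT5E read 499.7, 557 and 519 CPM in treated MDA-MB-231 and 38.1, 29.9 and 32.3 CPM in treated HCC38, a difference of 3.98 (SE 0.11) after 7.04. Untreated NT5E was 582 ± 68.1 and 4.42 ± 0.371 CPM, and the change of -3.06 was called (SE 0.16, adjusted p = 1.2e-08). FOSL1, an AP-1 subunit, went from 4.36 to 2.76, HMGA2, a chromatin protein, from 2.39 to 0.75, and the receptor kinase AXL from 2.69 to 1.47. The HMGA2 change was not called with log2(FPKM + 0.1) (-1.57, adjusted p = 0.091, limma). AXL read 804, 794 and 892 CPM in treated MDA-MB-231 and 301, 312 and 284 CPM in treated HCC38. AXL also fell in MDA-MB-231 (log2 response -0.40, adjusted p = 0.0022).

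The MDA-MB-231-high differences of DKK1 and KLF4 closed, and both genes rose in HCC38. DKK1, a secreted Wnt antagonist, read 119, 179.7 and 178 CPM in treated MDA-MB-231 and 168, 161 and 157 CPM in treated HCC38, with overlapping groups (interval -0.35 to 0.30) after 1.49 untreated. KLF4, a transcription factor, read 26.16, 18.96 and 20.61 CPM against 20.1, 21.5 and 20.6 CPM after 1.11 untreated. ITGA2, the integrin α2 chain, closed from 1.66 to 0.21, but treated MDA-MB-231 replicate 1 (131 CPM) lay above replicates 2 and 3 (76.0 and 78.3 CPM). Without untreated HCC38 replicate 1 the ITGA2 change was not called (-1.40, adjusted p = 0.059). With the term for the parts the treated ITGA2 difference was called (0.28, adjusted p = 0.0012). In the part of replicate 1 alone, the treated differences of DKK1 (-0.44, adjusted p = 0.00041) and KLF4 (0.34, adjusted p = 0.018) were called.

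Differences that opened towards MDA-MB-231 were led by FST, which encodes follistatin, an activin antagonist. FST read 20.6, 43.1 and 46.0 CPM in treated MDA-MB-231 and 6.26, 6.94 and 8.32 CPM in treated HCC38, a difference of 2.35 (SE 0.37, adjusted p = 8.0e-05) after 0.15. Treated replicate 1 was again the one apart, and the treated FST difference was 1.52 in its part and 2.63 in the other. Untreated FST was also uneven in MDA-MB-231, at 8.64, 9.69 and 23.4 CPM. The untreated difference was -0.46 in the part of treated replicate 1 and 0.90 in the other, so 0.15 averages differences of opposite sign. Towards HCC38, SLC16A7, a monocarboxylate transporter, opened to -1.15 with 26.8, 22.8 and 25.3 CPM against 53.7, 51.4 and 60.9 CPM. Its untreated difference of -0.24 lay near the threshold for a call (SE 0.11, adjusted p = 0.055). On the log2(FPKM + 0.1) scale the SLC16A7 difference was already -0.89 untreated and -1.73 treated, so its opening depends on the threshold and the measure. PAQR5, a membrane progestin receptor, opened to -1.17.

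Among widened differences, LGR4, a receptor for R-spondins that strengthens Wnt signalling, read 126, 93.5 and 87.9 CPM in treated MDA-MB-231 and 8.54, 9.35 and 10.1 CPM in treated HCC38. Its difference was 3.46 (SE 0.14) after 1.78, and LGR4 fell in HCC38 (log2 response -1.46, adjusted p = 1.1e-05). SNAI2, a transcription factor that represses epithelial genes, widened from 0.92 to 2.34. On the HCC38 side SERPINE2, a protease inhibitor, read 32.1, 32.4 and 33.1 CPM in treated MDA-MB-231 and 342, 316 and 309 CPM in treated HCC38, a difference of -3.31 after -2.34. PMAIP1, which encodes the pro-apoptotic protein NOXA, widened from -1.28 to -2.18, at 30.9, 36.6 and 36.6 CPM against 160.1, 147 and 166 CPM. EIF3C, a translation initiation factor with a near-identical copy, reversed to HCC38-high (0.57 to -0.35). With log2(FPKM + 0.1) the treated EIF3C difference was not called (-0.35, adjusted p = 0.079, limma).

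**Figure D4:**
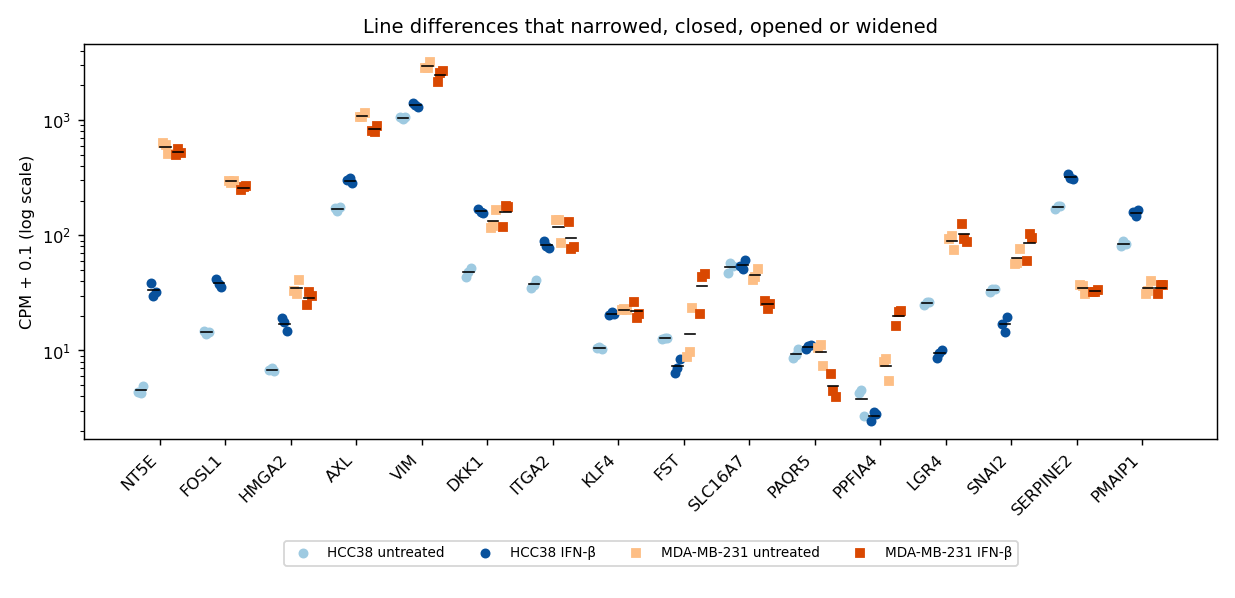
Points are single libraries (3 per group) of 16 genes whose line difference narrowed, closed, opened or widened, as CPM plus 0.1 on a log axis, with a bar at each group mean. NT5E rises in HCC38 towards the MDA-MB-231 level, the treated groups of DKK1 and KLF4 overlap, and those of LGR4, SERPINE2 and PMAIP1 lie further apart than the untreated groups.

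Most differences were kept. By the naming rule the leading MDA-MB-231-high genes were FLG, ANKRD1, FERMT3, MAGEB2 and CACNA2D4, and the leading HCC38-high genes ANPEP, IGFBP5, NRK, NID1 and AKR1C1. FERMT3, the kindlin of blood cells that activates integrins, read 208, 189.8 and 224 CPM in treated MDA-MB-231 and 0.824, 0.816 and 0.336 CPM in treated HCC38, a difference of 8.27 beside 7.65 untreated. MAGEB2, a cancer-testis antigen, read 109, 99.4 and 105 CPM in treated MDA-MB-231 and 0 counts in HCC38, at least 2965-fold higher against the floor of 3 counts over the group. ANPEP, the aminopeptidase CD13, read 0.261, 0.0337 and 0.0747 CPM in treated MDA-MB-231 and 556, 576 and 489.8 CPM in treated HCC38. NID1, a basement membrane protein, was at 0 counts in MDA-MB-231 and 345, 370.1 and 339 CPM in treated HCC38, at least 12220-fold higher there.

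Epithelial junction genes remained on the HCC38 side. Of 31 tested 27 were HCC38-high under treatment and 1 MDA-MB-231-high, beside 38.2% and 36.7% of all genes, and 24 were kept. GRHL2, a transcription factor of epithelial cells, was at 0 counts in MDA-MB-231 with and without interferon-β and at 64.3, 64.4 and 66.3 CPM in treated HCC38. CDH1, which encodes E-cadherin, read 0.435, 0.673 and 0.473 CPM in treated MDA-MB-231 and 152, 168 and 167 CPM in treated HCC38. CDH1 had 54 counts in treated MDA-MB-231 and was 0.0242 ± 0.0420 CPM untreated, so the difference narrowed from -12.05 to -8.28 (change 3.78, SE 0.52, adjusted p = 0.00082) and stayed at 310.2-fold. On the log2(FPKM + 1) scale the CDH1 change came to 0.10 and was not called. KRT19, a keratin of simple epithelia, stayed at -10.22.

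Mesenchymal genes were called in both directions, and more matrix genes were HCC38-high than MDA-MB-231-high. Of 31 mesenchymal genes 12 were MDA-MB-231-high and 17 HCC38-high under treatment, beside 36.7% and 38.2% of all genes. The kept ones numbered 19, near the 64.1% of all genes. Their change was called for 9, 5 towards MDA-MB-231 and 4 towards HCC38, beside 3.57% called either way over all genes. Of 37 collagen and matrix genes 8 were MDA-MB-231-high and 23 HCC38-high under treatment, with a median of -1.08 and 21 kept. For this list the change was called for 9, 8 towards MDA-MB-231 and 1 towards HCC38. VIM, which encodes vimentin, narrowed from 1.49 to 0.86, and ZEB1, a repressor of epithelial genes, was kept at 1.07. CDH2, or N-cadherin, and FN1, or fibronectin, were HCC38-high, CDH2 at 0.376 ± 0.213 against 287 ± 14.3 CPM and FN1 at 385 ± 139 against 3853 ± 215 CPM. COL1A1, the collagen I chain most used as a fibroblast marker, read 23.96, 18.39 and 20.13 CPM in treated MDA-MB-231 and 2433, 2659 and 2142 CPM in treated HCC38. The 15 fibroblast and endothelial markers summed to 2661 to 3147 CPM in treated HCC38 and 30.1 to 38.4 CPM in treated MDA-MB-231, with 2 and 1 of them at 0, and their part in the matrix differences was not tested.

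**Figure D5:**
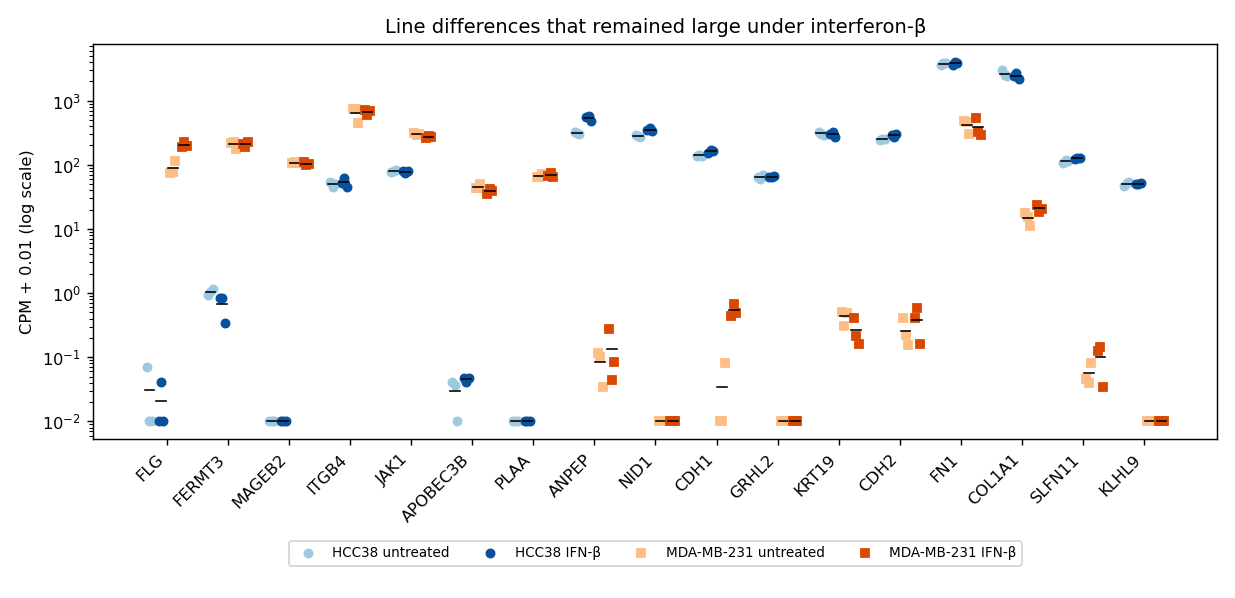
Points are single libraries (3 per group) of 17 genes with large line differences, as CPM plus 0.01 on a log axis, with a bar at each group mean, so a point at 0.01 is 0 counts. The groups stay apart in both conditions, including CDH1, whose difference narrowed, and NID1, GRHL2, KLHL9, MAGEB2 and PLAA are at 0 in one line throughout.

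Among genes that act on damaged or replicating DNA, single members differed widely. SLFN11, which blocks stressed replication forks, had 0.116, 0.135 and 0.0249 CPM in treated MDA-MB-231 and 125, 127 and 127 CPM in treated HCC38, and SLFN11 and SLFN13 differed by -10.45 and -11.41. APOBEC3B, a cytidine deaminase of DNA, read 35.0, 41.3 and 39.4 CPM in treated MDA-MB-231 against 3 counts in all in treated HCC38. Of 35 genes of the ATR and CHK1 replication stress pathway 20 were kept, 10 in each direction, beside 64.1% of all genes. Of 33 homologous recombination and Fanconi genes 17 were kept, of 33 genes of the G1 to S step 19, and of 25 genes of the G2 to M step 8. CHEK1 itself was MDA-MB-231-high by 0.82 (SE 0.08, adjusted p = 2.6e-07). Of 31 cell death genes 20 were kept, a share like that of all genes (64.1%). However, the change was called for 7 of them, 4 towards MDA-MB-231 and 3 towards HCC38, beside 3.57% called either way over all genes. The death ligand TNFSF10 rose from 0 counts to 0.817 ± 0.333 CPM in MDA-MB-231 and was 18.6 ± 1.53 CPM in treated HCC38, and the receptor FAS stood at 3.27 ± 1.01 and 32.1 ± 3.11 CPM.

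Several genes on the short arm of chromosome 9 were at 0 in one line or the other. KLHL9, at 9:21329665-21335404, encodes a ubiquitin ligase adaptor and was at 0 counts in MDA-MB-231 and 49.7, 50.1 and 52.1 CPM in treated HCC38. HACD4, MIR31HG and MTAP were also at 0 in treated MDA-MB-231. Further along, TUSC1, CAAP1, PLAA and IFT74 were at 0 in treated HCC38, and PLAA, which binds ubiquitin, read 67.4, 73.8 and 64.9 CPM in treated MDA-MB-231. From HACD4 to IFT74 (9:20999509-27066134) the tested genes with a symbol were these, and each was at 0 in one treated line.

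Whole chromosomes also leaned to one line among the kept genes. On chromosome 18, 54.3% of 276 tested genes were kept HCC38-high and 18.5% MDA-MB-231-high, and on chromosome 15 the shares were 49.0% and 17.2% of 628. On chromosome 11, 45.4% of 951 were kept MDA-MB-231-high and 19.6% HCC38-high. Over all genes the shares were 32.9% HCC38-high and 31.3% MDA-MB-231-high. Gene dosage was not measured, and its part in these shares was not tested.

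The lists of general cell functions differed among themselves. Of 42 ribosomal protein genes 34 were MDA-MB-231-high and 0 HCC38-high in untreated cells, and 32 and 1 under treatment, beside 36.7% and 38.2% of all genes. Of 27 glycolysis and hypoxia genes 20 and 2 were called in these directions in untreated cells, and 22 and 2 under treatment. Of 24 sterol and lipid genes 7 were MDA-MB-231-high and 8 HCC38-high under treatment, and of 13 reference genes 6 and 4. SLC2A3, a glucose transporter, read 164, 94.7 and 95.3 CPM in treated MDA-MB-231 and 1.24, 1.38 and 1.08 CPM in treated HCC38. The media differ in glucose, and this cannot be told apart from the line. For the MAPK feedback list 15 of 24 were MDA-MB-231-high and 6 HCC38-high under treatment, and its median fell from 1.64 to 0.97. The change was called towards HCC38 for 6 members and towards MDA-MB-231 for 0, beside 3.57% called either way over all genes.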

How the data were processed

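The members and gene lists were chosen with earlier results of these data known. For each library the authors deposited whole-number read counts per gene, not normalized, and FPKM values (fragments per kilobase of transcript, normalized for depth). Per the submitters' processing notes, the tools included Cufflinks 2.2.1, HTSeq 2.0.2 and fastp 0.23.2, with GRCh38.p13 as the build. No source used here gives the aligner or the strand and overlap settings of HTSeq, so overlapping genes and near-identical copies are uncertain. Coordinates are the loci of the deposited FPKM tables, counted from 1.

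Of 61552 genes, 18121 passed filterByExpr (minimum count 10, minimum total 15). All 12 libraries were scaled by TMM and fitted together with edgeR 4.0.16 (R 4.3.3, limma 3.58.1), 1 coefficient per group, and adjusted p-values are from its quasi-likelihood test. The change is the treated minus the untreated line difference. Counts were simulated for 16698 genes, of which 100 well-counted ones were given a 2-fold difference in treated MDA-MB-231 alone. Of these, 90% were recovered as treated differences and 81% as changes. The simulation used treated HCC38 means for all libraries and held no MDA-MB-231 parts. The rates may therefore not hold for low-count genes or for the spread of the real libraries. Replicate numbers did not pair the lines.

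Named genes were 28 chosen ones (2 not tested, 1 not reported here), the leading genes of each class and direction (at least 10 CPM in a group, lines not overlapping where called), and up to 3 called members per list of 33. Others named were chosen after their values were seen. Alternatives were median-of-ratios factors, library totals, no filter, DESeq2 1.42.0, log2(FPKM + 1), log2(FPKM + 0.1), each library left out, a block, the parts of MDA-MB-231 and a 1.5-fold threshold.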

Additional observations from a re-analysis of the deposited data

Results flagged for a closer look

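The line difference changed between untreated and interferon-β-treated cells for 647 genes, by the interaction of line and treatment in edgeR, and these genes are listed because 2 lines differed under the same contrast. Of the named genes, those below passed that test, each value being the change of the log2 difference of MDA-MB-231 over HCC38.

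Towards MDA-MB-231, the changes of the interferon-stimulated genes were OAS1 6.02, MX1 5.07, ISG15 1.65, IFI27 4.40, IFITM1 5.62, SAMHD1 1.33, OAS3 2.97, PARP9 2.62, USP18 2.59, and further OAS2 4.49, IFI6 4.17, HSH2D 5.80, EPSTI1 2.39, PARP10 2.00, MX2 5.34, IFI44L 5.70, GBP4 1.36, DHX58 2.15. Among the antigen-presentation genes they were HLA-B 1.22, B2M 0.51, HLA-F 1.19, HLA-DRB1 2.72, HLA-DPA1 2.51. The call was lost for B2M in 11 of 23 alternative settings, for HLA-DRB1 in 10 and for HLA-DPA1 in 4. Other genes that moved this way were TNFSF10 6.67, CDH1 3.78, FST 2.2, MATN2 1.76, GLP2R 2.47, ANXA8 2.13, PPFIA4 1.98, LGR4 1.68, COL1A2 3.36, FAS 1.31. The COL1A2 change lost its call in 9 of 23 settings and that of FAS in 4. In this last set, TNFSF10, CDH1 and COL1A2 had fewer than 100 counts over the 3 treated MDA-MB-231 libraries, so the size of their change depends on few reads.

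Towards HCC38, the changes were NT5E -3.06, AXL -1.22, VIM -0.63, FOSL1 -1.59, HMGA2 -1.64, GPAT3 -1.60, DKK1 -1.51, ITGA2 -1.45, RPLP0P6 -1.28, KLF4 -1.03, RPL7P9 -1.41. The remaining ones were G0S2 -1.08, SLC16A7 -0.91, PAQR5 -1.20, SERPINE2 -0.96, SEMA3D -1.08, ITGBL1 -0.97, EEF1A1P6 -1.41, EIF3C -0.92, ARHGAP18 -0.84, DUSP5 -0.56. The DUSP5 change kept its call in 7 of 23 settings and that of RPLP0P6 in 11, and that of ITGA2 lost it in 4. RPLP0P6, RPL7P9 and EEF1A1P6 are processed copies of abundant genes and their counts are uncertain.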

How the results depend on the processing

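The main counts were 13567 treated and 13671 untreated line differences, 647 changes, 11624 kept, 390 narrowed or closed, 184 widened or opened and 80 reversed. The treated count stayed within 1.5 times of the main one except against a 1.5-fold threshold (8990), as did the kept count in all settings tried. The classes that rest on the interaction moved more. Changes, narrowed or closed, and widened or opened genes numbered 1286, 727 and 469 with DESeq2, and 1254, 728 and 439 without the filter. With the threshold of 1.5-fold they numbered 94, 74 and 11, with 7 reversed. With log2(FPKM + 0.1) they were 208, 124 and 63, with 49 reversed, and with log2(FPKM + 1) 289, 153 and 111, with 49 reversed. With a term for the parts of MDA-MB-231 they were 2233, 1251 and 841, with 141 reversed, and in the second part alone 2354, 1273 and 910, with 171 reversed. The causes were not tested. Of the 80 reversed genes 73 were shared with DESeq2, and of the 390 narrowed or closed genes 381. Other settings shared fewer of these 2 sets. With log2(FPKM + 0.1) 26 and 98 were shared, and against the 1.5-fold threshold 7 and 64. Without treated MDA-MB-231 replicate 3 the shared genes numbered 54 and 198.

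Leaving out 1 library gave 13070 to 14225 treated and 13215 to 14226 untreated differences, 312 to 1492 changes, 11178 to 11726 kept, 203 to 796 narrowed or closed, 64 to 559 widened or opened and 58 to 139 reversed. Changes rose to 1492 without treated MDA-MB-231 replicate 1 and to 998 without untreated replicate 3. They fell to 382 and 324 without treated replicates 2 and 3, and to 428 without untreated replicate 1. In HCC38 they fell to 358 and 332 without treated replicates 1 and 3, and to 312, 426 and 363 without untreated replicates 1, 2 and 3. The replicate block, where same-numbered treated libraries correlated at -0.0988 to -0.0471, gave 13523 treated differences and 575 changes, and no count moved past 1.5 times. Of 159 gene results 129 were the same in every setting and 30 lost their call in at least 1. On log2(FPKM + 1) 2 changed sign, the changes of TNFSF10 (-0.18) and GBP4 (-0.042). The median of the antiviral list under treatment was 0.25 with median-of-ratios factors and 0.32 with library totals. Depth limits genes near 0 counts, where fitted folds depend on the prior count.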
